A study of Mus musculus with 4 samples.

Results

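The genes described here are 10 inhibitors of cytokine signalling, measured in mouse bone marrow-derived macrophages: the suppressors of cytokine signalling Socs1 to Socs7, the related gene Cish, the SUMO ligase gene Pias1 and the phosphatase gene Ptpn6. They were taken by gene symbol from the platform annotation, using probesets (the array's groups of probes for a transcript) with exactly 1 symbol, and each gene was read from its probeset with the highest mean over the 4 arrays. All 10 were found among the 19938 genes so represented, and 14 probesets carried their symbols.

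There were 4 arrays, 1 for each combination of genotype and culture. The mutant strain was 4get/Stat6-/-: these mice have no functional Stat6, the STAT protein through which the IL-4 receptor acts, and carry the 4get allele, a reporter of IL-4 transcription. BALB/c mice gave the wild-type cells. Bone marrow was grown for 7 days with 10% supernatant of L929 fibroblasts as the source of M-CSF, and the macrophages were then kept for 24 h with IL-4 or in medium and sorted for a macrophage surface protein, the product of Adgre1. All arrays share this culture and sort. The labels give the IL-4 dose with different units in different places, so it is not stated here. The number and age of the mice are not known from the labels. The 4get allele was carried by the Stat6-/- cells alone per the strain labels, so a difference between genotypes cannot be told apart from a difference between these strains.

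SOCS proteins are feedback inhibitors. Cytokine receptors activate Janus kinases (JAKs), which phosphorylate STAT transcription factors, and the STATs switch on SOCS genes among others. The SOCS proteins then bind phosphorylated receptors or JAKs through an SH2 domain, and their SOCS box recruits elongins and a cullin ubiquitin ligase. In macrophages SOCS1 and SOCS3 are known as brakes on interferon and IL-6 signalling. PIAS1 attaches SUMO to other proteins, and SHP-1, the product of Ptpn6, removes phosphate from signalling proteins.

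Signals are RMA values in log2 units, and a difference is the subtraction of one such signal from another. The median of all single-symbol probesets, a log2 signal of 2.52, served as the floor for a detectable signal. A gene is said to have risen or fallen where its signal differed at least 2-fold between a pair of arrays and the higher array reached that level. Where a percentage of all genes is set beside a count, it is a share of the genes that reached that level in the comparison. As each group was a single array, no test was possible, and no difference given has a replicate check. In bulk RNA of the sorted cells, fewer cells of a type and less RNA per cell cannot be told apart.

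The Stat6 signal went with the labels. It was 4.25 with IL-4 and 4.54 in medium in Stat6-/- cells, against 6.68 with IL-4 and 7.34 in medium in wild-type cells, and whether the probeset reads the deleted part is not known from the files. All 9 macrophage markers on the array reached the floor on every array, among them Adgre1, whose product was used for the sort, at 9.54 to 10.75, and their summed signal ran from 12.87 in wild type with IL-4 to 13.43 in wild type in medium. With IL-4, 0 of these 9 passed the rule in Stat6-/- cells and 4 fell in wild type, Cd14 (-2.74), Fcgr1 (-1.76), Mertk (-1.36) and Adgre1 itself (-1.21), on the array where 3 SOCS genes were high. In the T cell marker list, 2 of 7 genes fell with IL-4 in wild type, Cd28 and Cd4, and the summed log2 signal of the list was 6.93 with IL-4 and 7.16 in medium in Stat6-/- cells, against 5.09 with IL-4 and 7.11 in medium in wild type. Cd3d and Cd3g were under the floor on all 4 arrays and Cd3e lay between 2.44 and 2.70. On the array of wild type with IL-4, where 3 SOCS genes were high, 1 of 10 neutrophil markers rose (Mmp8) and 1 fell (Ngp), 1 of 7 dendritic cell markers rose (Batf3) and 1 of 9 fibroblast markers rose (Postn). The dendritic cell list summed to 5.24 with IL-4 and 4.99 in medium in Stat6-/- cells, against 5.76 with IL-4 and 4.92 in medium in wild type, and the sums of the other pair of lists spanned less than this. The floor was reached on at least 1 array by 4 of 10 neutrophil, 2 of 7 dendritic cell and 5 of 9 fibroblast markers. Of neutrophils, Csf3r lay at 6.97 to 7.30 and Mmp8 at 4.30 to 6.39, while Ly6g was under the floor on all arrays. Of dendritic cells, Batf3 lay at 2.99 to 4.96, while Flt3 was under the floor on all arrays. Col1a1 of fibroblasts lay at 3.08 to 3.41. The part of these markers in the results was not tested.

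With IL-4, 0 of the 10 inhibitors passed the rule in Stat6-/- macrophages. In wild-type macrophages 3 of the 10 rose, Socs2, Cish and Socs1, and 1 fell, Pias1. Over all genes with the higher array at the floor, 0.355% passed it in Stat6-/- cells (0.24% higher and 0.115% lower), while 2.96% rose and 6.78% fell with IL-4 in wild type (9.74% either way), so that 1 decrease among 10 genes lies near the background. In wild type this was 304 genes higher and 697 lower as deposited, and 403 and 488 after a repeat of the quantile normalization, which moved the median difference of the genes tested to 0.02, against -0.11 as deposited. The median over the 10 inhibitors was 0.04 in wild type, beside -0.11 over the genes tested and 0.01 over all genes.

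**Figure D1:**
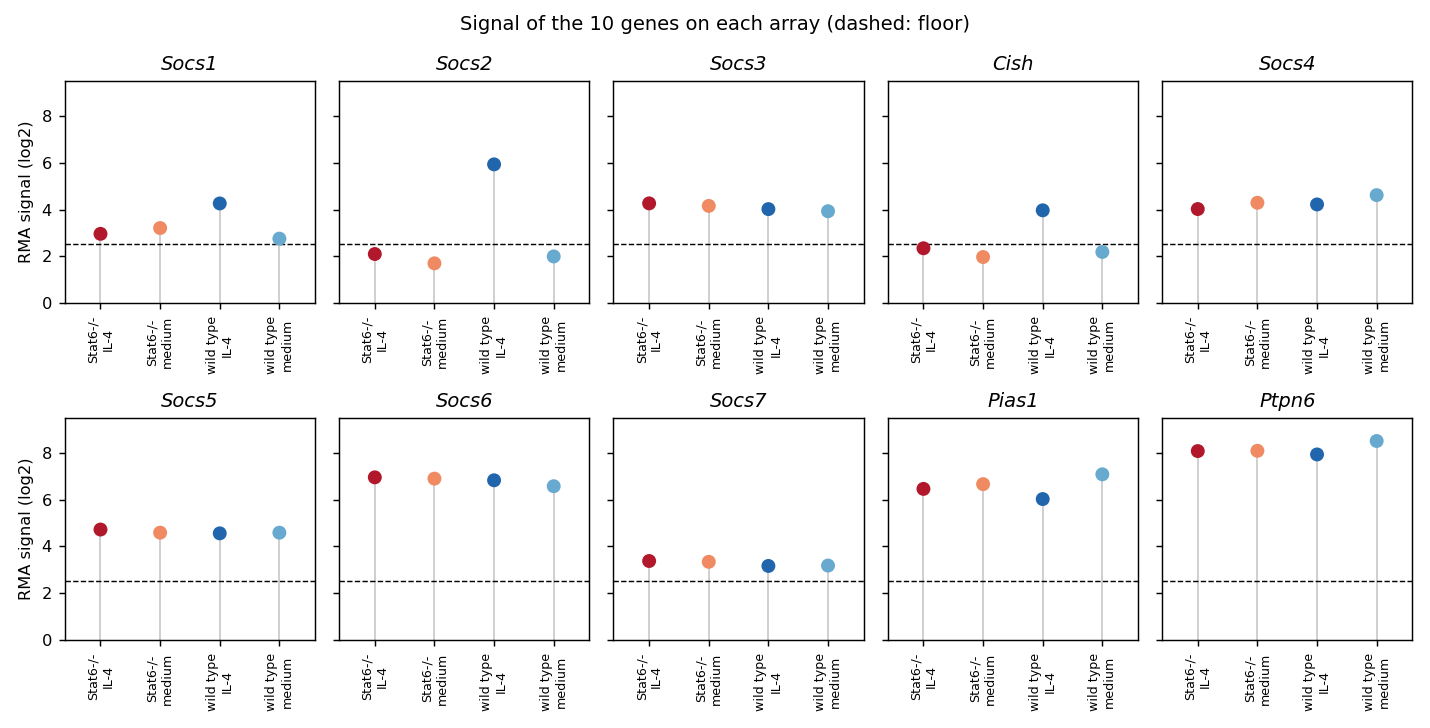
Each panel plots the RMA signal (log2, vertical axis) of 1 gene on the 4 arrays (horizontal axis), 1 point per array, with the floor of 2.52 as a dashed line. For Socs1, Socs2 and Cish the point of wild type with IL-4 stands above the other 3 arrays. For Socs5, Socs7, Pias1 and Ptpn6 that point is the lowest of the 4.

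Socs2, which dampens growth hormone receptor signalling and is known as a target of STAT5, had signals of 2.10 with IL-4 and 1.71 in medium in Stat6-/- cells, against 5.94 with IL-4 and 2.002 in medium in wild type. The array of wild type with IL-4 alone was above the floor. In Stat6-/- cells both arrays were under it and no fold is given. On this probeset the increase in wild type was a lower bound, at least 10.7-fold.

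The size of the Socs2 increase depended on the probeset. A second Socs2 probeset had signals of 1.90 with IL-4 and 2.10 in medium in Stat6-/- cells, against 2.88 with IL-4 and 1.91 in medium in wild type. Its difference with IL-4 in wild type was 0.97, just short of the rule and measured against a signal under the floor. Its signal was again above the floor in wild type with IL-4 alone. There it was close to the floor, so a bound against the floor would be smaller than 0.97. Probesets on this array are numbered along the genome for the most part, and of the 10 nearest named probesets 9 lay on the chromosome of Socs2 for the second probeset but 0 for the first one. Among all 21685 single-symbol probesets so checked, 2.72% had no such neighbour. The annotation gives 7 transcript accessions for the first probeset and 5 for the second. Which of them reads the Socs2 transcript better was not tested.

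Cish encodes CIS, the founding member of the family, which competes with STAT5 for docking sites on cytokine receptors. Its signals were 2.35 with IL-4 and 1.98 in medium in Stat6-/- cells, against 3.97 with IL-4 and 2.19 in medium in wild type. As for Socs2, wild type with IL-4 was the 1 array of 4 above the floor. Cish rose at least 2.73-fold in wild type.

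Socs1, whose product blocks the catalytic site of JAKs, was above the floor on all 4 arrays. It had signals of 2.97 with IL-4 and 3.22 in medium in Stat6-/- cells, against 4.27 with IL-4 and 2.76 in medium in wild type. The difference with IL-4 was -0.25 in Stat6-/- cells, short of the rule. In wild type Socs1 rose by 1.51, or 2.84-fold, in the opposite direction, and ranked 107 from the top among the 10282 genes tested. In wild type in medium the signal was close to the floor, and RMA draws such low signals together, which understates folds.

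Socs3, the inhibitor of receptors that use gp130, such as that of IL-6, stayed short of the rule. Its signals were 4.27 with IL-4 and 4.16 in medium in Stat6-/- cells, against 4.03 with IL-4 and 3.93 in medium in wild type. The difference with IL-4 was 0.11 in Stat6-/- cells and 0.09 in wild type, and the 4 arrays spanned 0.34. Over all 10798 genes that reached the floor on any array, the median span was 0.56. A second Socs3 probeset varied more. It had signals of 2.72 with IL-4 and 2.84 in medium in Stat6-/- cells, against 2.55 with IL-4 and 2.13 in medium in wild type, the last under the floor. Its difference with IL-4 was -0.12 in Stat6-/- cells and 0.42 in wild type, and the genotypes differed by 0.71 in medium, all short of the rule.

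Promoter windows were available for 6 of the 10 genes, Socs1, Socs3, Socs4, Cish, Pias1 and Ptpn6. They are RefSeq sequences of assembly GRCm38.p6 that run from 250 bases before to 50 after the annotated start. Most STAT dimers bind TTCNNNGAA, and STAT6 is known to favour the wider spacing TTCNNNNGAA. The element GAAANNGAAA is the core of sites for interferon regulatory factors. The first 2 motifs read the same on both strands, and GAAANNGAAA was searched on both strands. The windows of the pair of genes that rose with IL-4 and have one, Cish and Socs1, and that of Socs3, which did not pass the rule, are given 5′ to 3′. Each is cut to the 180 bases before and the 20 after the start, with every match to any of the 3 motifs in capitals.
Cish, chr9:107296479-107296678, strand +: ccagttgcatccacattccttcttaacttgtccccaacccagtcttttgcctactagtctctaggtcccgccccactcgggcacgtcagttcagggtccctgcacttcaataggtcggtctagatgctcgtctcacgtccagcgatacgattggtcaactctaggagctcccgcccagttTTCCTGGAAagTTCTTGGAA
Socs1, chr16:10785517-10785716, strand -: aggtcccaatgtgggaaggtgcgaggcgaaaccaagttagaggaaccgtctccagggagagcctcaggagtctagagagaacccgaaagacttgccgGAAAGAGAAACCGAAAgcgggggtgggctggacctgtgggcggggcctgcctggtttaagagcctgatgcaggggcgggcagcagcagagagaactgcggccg
Socs3, chr11:117969347-117969546, strand -: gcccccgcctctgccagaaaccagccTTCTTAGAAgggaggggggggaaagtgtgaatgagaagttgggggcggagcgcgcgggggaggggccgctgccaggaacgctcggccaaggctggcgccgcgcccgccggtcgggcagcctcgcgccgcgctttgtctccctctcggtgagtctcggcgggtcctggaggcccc

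In the Cish window TTCNNNGAA matched 2 times, as TTCCTGGAA at bases 1 to 9 and as TTCTTGGAA at bases 12 to 20 after the start. In the Socs3 window it matched 1 time, as TTCTTAGAA at bases -154 to -146. The other 4 windows held no match, while 8.30% of all 32851 promoter windows of this length held at least 1. TTCNNNNGAA was found in 0 of the 6 windows and in 6.95% of all windows. GAAANNGAAA was found in the Socs1 window alone among the 6, as GAAAGAGAAA at -83 to -74 and as GAAACCGAAA at -77 to -68, which overlap and stand as 1 run of capitals, and in 3.44% of all windows. These matches are descriptions of the letters and were not tested for binding.

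Socs4, Socs5, Socs6 and Socs7 carry long amino-terminal regions before their SH2 domain, and their products are better known from growth factor and insulin receptors than from STAT feedback. None of these 4 passed the rule in any comparison. Socs4 had signals of 4.03 with IL-4 and 4.30 in medium in Stat6-/- cells, against 4.22 with IL-4 and 4.62 in medium in wild type. The difference with IL-4 was -0.27 in Stat6-/- cells and -0.40 in wild type, the same direction in both and short of 2-fold in each.

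Socs5, described in T cells as an inhibitor of IL-4 receptor signalling, had signals of 4.72 with IL-4 and 4.59 in medium in Stat6-/- cells, against 4.56 with IL-4 and 4.59 in medium in wild type. The span of 0.16 over the 4 arrays was the narrowest of the 10 genes, and 3.51% of all genes that reached the floor had a narrower one. Socs7, whose product binds the adaptor NCK, ran from 3.16 to 3.38, a span of 0.21. Both genes thus differed little between cultures and genotypes.

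Socs6, which promotes the turnover of receptor signalling proteins, had signals of 6.95 with IL-4 and 6.90 in medium in Stat6-/- cells, against 6.83 with IL-4 and 6.57 in medium in wild type. As for Socs2, the probeset with the highest mean had 0 of its 10 nearest named neighbours on the chromosome of the gene. A second probeset with 5 neighbours there had signals of 6.13 with IL-4 and 6.51 in medium in Stat6-/- cells, against 6.28 with IL-4 and 6.11 in medium in wild type. The difference with IL-4 in Stat6-/- cells was 0.05 on the first and -0.38 on the second, so the probesets disagreed in sign there, and both were short of the rule. The remaining Socs6 probeset lay between 0.997 and 1.12, under the floor on all arrays.

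**Figure D2:**
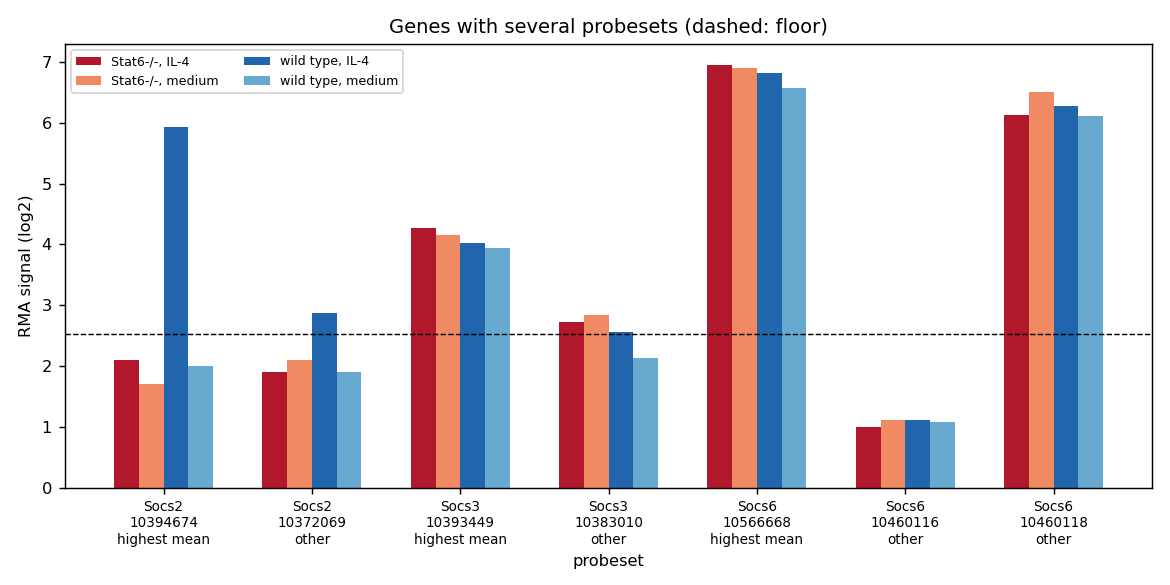
Bars give the RMA signal (log2, vertical axis) of every probeset of the 3 genes with several, Socs2, Socs3 and Socs6, on the 4 arrays, with the floor of 2.52 as a dashed line and the array's probeset number under each group of bars. Both Socs2 probesets exceed the floor in wild type with IL-4 alone, at 5.94 and 2.88, while no Socs3 or Socs6 probeset differs 2-fold between arrays.

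Pias1 was the 1 gene of the 10 that fell. Its signals were 6.46 with IL-4 and 6.66 in medium in Stat6-/- cells, against 6.02 with IL-4 and 7.08 in medium in wild type. The difference with IL-4 was -0.20 in Stat6-/- cells and -1.06, or 2.08-fold, in wild type. The call in wild type was lost when quantile normalization was applied again (-0.94) and when the trend with intensity was removed (-0.89).

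Ptpn6 had signals of 8.07 with IL-4 and 8.09 in medium in Stat6-/- cells, against 7.93 with IL-4 and 8.51 in medium in wild type. The difference with IL-4 was -0.01 in Stat6-/- cells and -0.57 in wild type, short of the rule in both. Wild type with IL-4 was the lowest of the 4 arrays for both Pias1 and Ptpn6, and wild type in medium was the highest. The array of wild type with IL-4 was also the lowest for Socs5 and Socs7, with spans of 0.16 and 0.21.

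**Figure D3:**
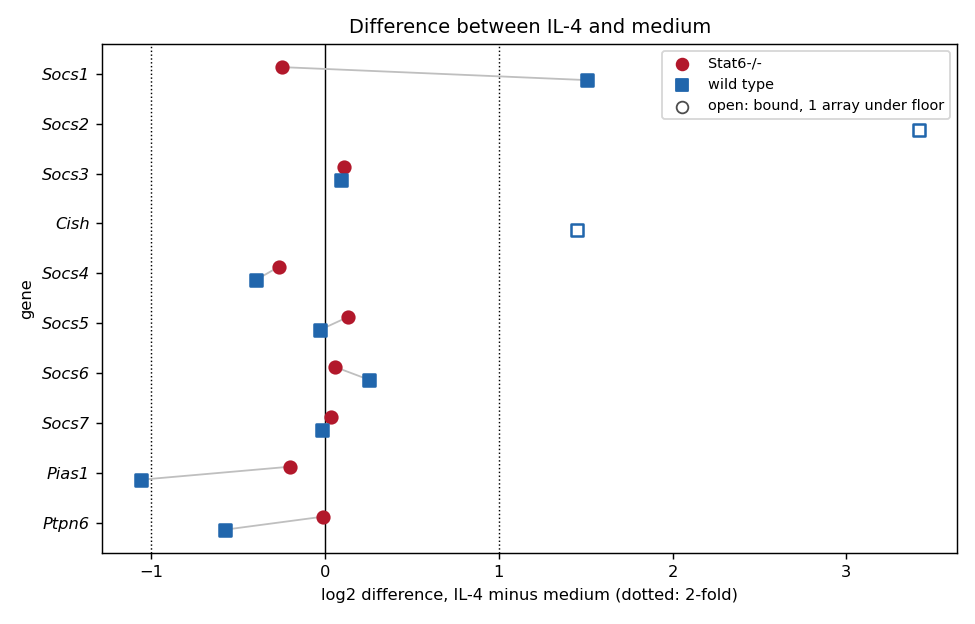
For each of the 10 genes (vertical axis) the plot gives the log2 difference between IL-4 and medium (horizontal axis), as a circle for Stat6-/- cells and as a square for wild type, with dotted lines at 2-fold. Open symbols are bounds, with the array under the floor raised to it, and Socs2 and Cish have no circle because both Stat6-/- arrays were under the floor. The circles lie between -0.27 and 0.13, while the squares of Socs2 (3.41, a bound), Cish (1.45, a bound), Socs1 (1.51) and Pias1 (-1.06) lie past the dotted lines.

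**Figure D4:**
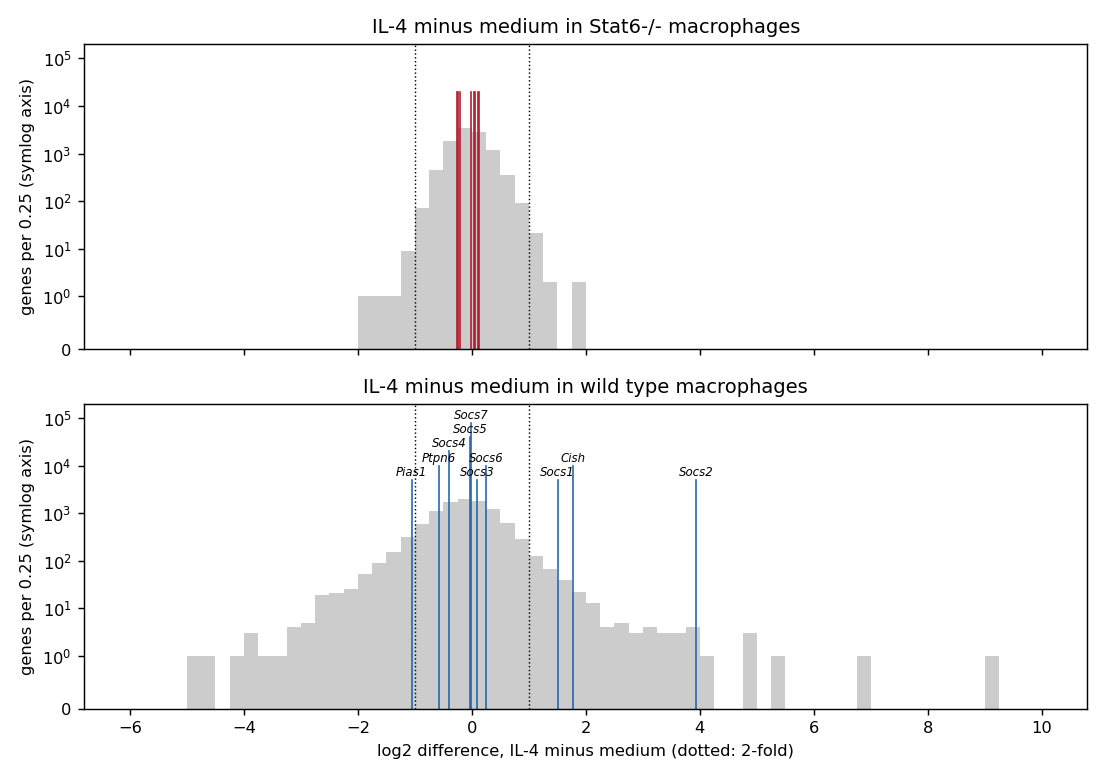
Grey bars count genes (vertical axis, symmetric log scale) by their log2 difference between IL-4 and medium (horizontal axis), above for Stat6-/- cells and below for wild type, over genes whose higher array reached the floor. Coloured lines mark the inhibitors, 8 in the Stat6-/- panel, where Socs2 and Cish were under the floor, and 10 in the wild-type panel, where Socs2 lies far in the upper tail. Differences are drawn as measured, so those of Socs2 and Cish in wild type include a signal in medium under the floor.

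Between the genotypes, with IL-4, 3 of 10 inhibitors were lower in Stat6-/- cells and 0 higher, beside 4.83% of all genes lower and 4.01% higher (8.84% either way). These 3 were Socs2 (at least 10.7-fold, on the probeset with the highest mean), Cish (at least 2.73-fold) and Socs1 (-1.30, or 2.46-fold). In medium 0 of 10 passed the rule, where 1.45% of all genes did (0.301% higher and 1.15% lower in Stat6-/- cells). Socs1 was 0.45 higher in Stat6-/- cells than in wild type in medium, short of the rule, so its genotype difference had opposite signs in the 2 cultures. Pias1 and Ptpn6 also turned: Pias1 differed by 0.43 with IL-4 and by -0.42 in medium, and Ptpn6 by 0.14 with IL-4 and by -0.42 in medium, Stat6-/- minus wild type, with 0 of these 4 differences past the rule. The second Socs2 probeset was -0.98 with IL-4, short of the rule and measured against a Stat6-/- signal of 1.90, under the floor. Its signal in wild type with IL-4, 2.88, was itself close to the floor of 2.52.

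**Figure D5:**
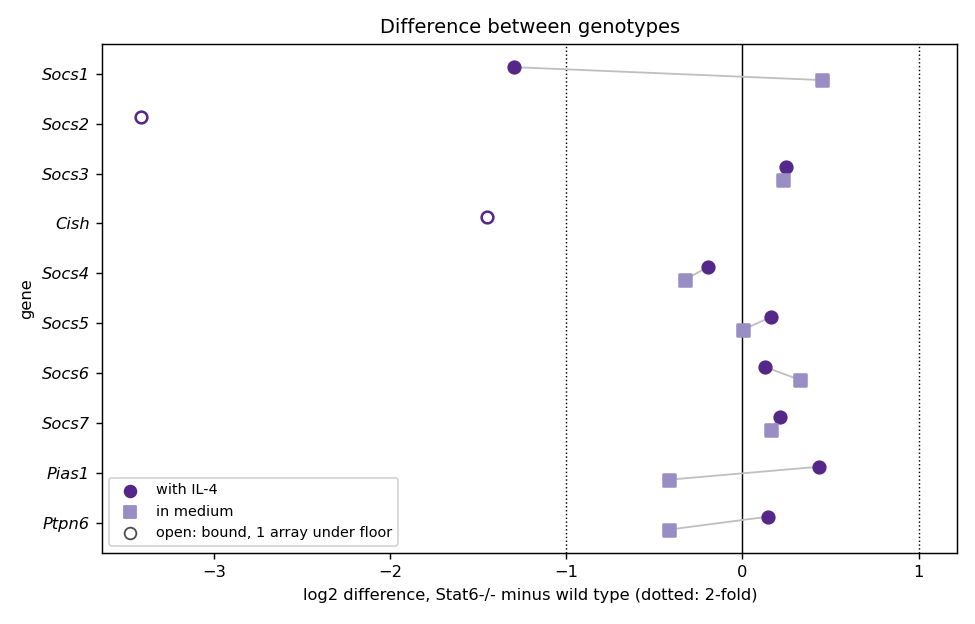
For each gene (vertical axis) the plot gives the log2 difference between Stat6-/- and wild type (horizontal axis), as a circle with IL-4 and as a square in medium, with dotted lines at 2-fold. Open symbols are bounds, with the array under the floor raised to it, and Socs2 and Cish have no square because both arrays in medium were under the floor. The circles of Socs2 (-3.41, a bound), Cish (-1.45, a bound) and Socs1 (-1.30) lie past 2-fold, and the squares lie between -0.42 and 0.45.

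The IL-4 effect in Stat6-/- cells minus that in wild type was past the rule for 3 inhibitors, all negative, where 3.2% of all genes were past it in that direction and 5.77% in the other (8.97% either way). It was -1.75 for Socs1. With signals under the floor raised to it, the difference of effects was -3.41 for Socs2, on the probeset with the highest mean, and -1.45 for Cish. On the second Socs2 probeset it was -1.17 as measured, with a signal above the floor in wild type with IL-4 alone. Pias1, at 0.85, was short of the rule, and so was Ptpn6 at 0.56. For the other 5 genes the difference of effects lay between -0.20 and 0.16 on the probeset with the highest mean. On the second Socs6 probeset it was -0.55. The second Socs3 probeset had an IL-4 effect of -0.12 in Stat6-/- cells and of 0.42 in wild type. This comparison, that of IL-4 with medium in wild type and that of the genotypes with IL-4 all contain the array of wild type with IL-4, so they are not independent of each other.

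The pathway around these inhibitors was described by gene lists, each by the number of its genes on the array, the number past the rule and its median. Among all genes tested, 0.355% passed the rule with IL-4 in Stat6-/- cells, and in wild type 6.78% fell and 2.96% rose. Of 9 JAK and STAT genes, 0 passed the rule with IL-4 in Stat6-/- cells and 0 in wild type. Their median in wild type was -0.31, beside -0.11 over the genes tested, whose higher array reached the floor, and 0.01 over all genes. With the intensity trend removed it was -0.19, beside -0.0045 over the genes tested. Stat5a had signals of 4.72 with IL-4 and 4.75 in medium in Stat6-/- cells, against 5.29 with IL-4 and 4.64 in medium in wild type. Jak2, the kinase that SOCS1 and SOCS3 bind, had signals of 5.36 with IL-4 and 5.89 in medium in Stat6-/- cells, against 6.70 with IL-4 and 6.25 in medium in wild type, and was lower in Stat6-/- cells with IL-4 (-1.34).

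Among 25 receptors that SOCS proteins regulate, 20 reached the floor in wild type, 0 passed the rule with IL-4 in Stat6-/- cells (0.355% of all genes), and 5 fell and 2 rose in wild type (6.78% and 2.96% of all genes), with a median of -0.33. Those that fell were Il10ra (-1.62), Il4ra (-1.57), Il13ra1 (-1.36), Ifnar2 (-1.34) and Il6ra (-1.15), chains of the receptors of IL-10, IL-4, IL-13, type I interferon and IL-6. Il6st, which encodes gp130, rose by 2.09: its signals were 7.25 with IL-4 and 7.09 in medium in Stat6-/- cells, against 9.51 with IL-4 and 7.42 in medium in wild type. Csf2ra, a chain of the GM-CSF receptor, rose by 1.13. With the intensity trend removed, the median of the 25 receptors was -0.22, beside -0.0045 over the genes tested (-0.11 as deposited). The IL-6 receptor's binding chain and its signalling chain moved in opposite directions in wild type (Il6ra by -0.98, short of the rule, with the intensity trend removed), while Socs3, the inhibitor that docks on gp130, was short of the rule.

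Between genotypes in medium, 1 of the 25 receptors was higher in Stat6-/- cells, Lifr, and 1 lower, Il7r, beside 0.301% and 1.15% of all genes. Lifr, which pairs with gp130, was 1.53 higher in Stat6-/- cells, and Il7r differed by -1.13, which became -0.98 with the intensity trend removed. With IL-4, Lifr was 2.20 higher in Stat6-/- cells and Il7r differed by -0.03. Of 25 cytokines listed as acting through JAKs, Csf1 (M-CSF) among them, 7 reached the floor. Through what each of them acts was not tested. With IL-4 in wild type 2 of these 7 fell, Il15 (-2.03) and Ebi3 (-1.85), a subunit of IL-27, beside 6.78% of all genes tested. Osm, the cytokine oncostatin M and a known STAT5 target, had signals of 3.87 with IL-4 and 3.35 in medium in Stat6-/- cells, against 2.47 with IL-4 and 3.37 in medium in wild type. Its difference with IL-4 in wild type, where Cish and Socs2 rose, was -0.90, short of the rule. Between the genotypes with IL-4 it was higher in Stat6-/- cells (1.41), where Cish and Socs2 were lower, and the difference of the IL-4 effects was 1.42, both past the rule. These differences include the Osm signal of wild type with IL-4, which was under the floor. Of 13 known STAT5 targets, 1 (Osm) was higher in Stat6-/- cells with IL-4, beside 4.01% of all genes. In the same direction as Cish and Socs2, 2 were lower, Myc (-3.08) and Igf1 (-1.17), beside 4.83% of all genes.

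The machinery that SOCS boxes recruit was read from 9 genes, among them Elob and Eloc (elongins B and C), Cul5 and Rnf7. Of these, 0 passed the rule in any of the 5 comparisons. By comparison, 0.355% to 9.74% of all genes tested passed it, so 0 of 9 lies near the background. The median of the 9 genes was 0.00133 for IL-4 in wild type. Of 26 other genes with a SOCS box, 13 reached the floor and 1 fell with IL-4 in wild type, Asb13 (-1.09, and -0.93 after repeated quantile normalization). Of 20 other inhibitors of cytokine signalling, which all reached the floor, 1 fell and 0 rose, with a median of -0.08, and 1 of 20 is no larger a share than the 6.78% of all genes that fell. Cblb, a ubiquitin ligase gene, differed by 0.90 as deposited and passed the rule after repeated quantile normalization (1.05) and with the intensity trend removed (1.09).

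The gene that fell was Pias3, the relative of Pias1 known as an inhibitor of STAT3. It had signals of 3.16 with IL-4 and 3.31 in medium in Stat6-/- cells, against 2.87 with IL-4 and 4.08 in medium in wild type, a difference of -1.21, which stayed past the rule under the 3 other scalings (-1.26 to -1.06). Pias2 (-0.32) and Pias4 (-0.07) were short of the rule. Thus 2 of the 4 Pias genes fell with IL-4 in wild type as deposited, and Pias3 alone when quantile normalization was applied again or the intensity trend was removed. Among 14 SUMO pathway genes 1 fell, the SUMO protease gene Senp7 (-1.08, and -0.93 after repeated quantile normalization), with a median of -0.14, and 1 of 14 lies near the 6.78% of all genes that fell. The phosphatases closest to Ptpn6 in function, Ptpn1 (0.11), Ptpn2 (0.07) and Ptpn11 (-0.10), were all short of the rule.

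Of 13 genes known as STAT5 targets, 11 reached the floor, and 1 rose with IL-4 in wild type (2.96% of all genes did) and 0 fell, with a median of 0.15. It was Myc, with signals of 2.88 with IL-4 and 2.93 in medium in Stat6-/- cells, against 5.95 with IL-4 and 3.57 in medium in wild type. Pim1 (-0.04) and Pim2 (-0.10), also known to be switched on by STAT5 in other cells, were short of the rule, and so was Bcl6 (-0.37), which STAT5 is known to repress. Of 14 known STAT3 targets, beside 6.78% of all genes lower and 2.96% higher, 3 fell, Hif1a (-1.73), Vegfa (-1.64) and Fos (-1.38), and 1 rose, Nfil3 (2.05). The median of the 14 targets was -0.63, beside -0.11 over the genes tested. With the intensity trend removed it was -0.47, beside -0.0045.

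Of 21 receptors listed as able to recruit SHP-1 through an inhibitory motif, 19 reached the floor. With IL-4 in wild type 5 fell and 1 rose, beside 6.78% and 2.96% of all genes. The median over the 21 receptors was -0.49, beside -0.11 over the genes tested. With the intensity trend removed it was -0.41, beside -0.0045. Siglece (-2.76), Cd300a (-1.75), Siglec1 (-1.55), Pecam1 (-1.52) and Cd33 (-1.24) were lower, and Lair1 (1.10) was higher. Siglec1 stands in the list although its product is known to lack such a motif, and without it 4 of 20 fell. The motifs of these 20 were not checked, so 4 of 20 is not a count of receptors that carry one. In none of the pathway lists described did a gene pass the rule with IL-4 in Stat6-/- cells as deposited. Cd300lf, at 0.95 there, reached 1.003 after repeated quantile normalization and 1.01 with the intensity trend removed.

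For the 4 inhibitors past the rule in any comparison, the genes with the most similar profile were sought among 10788 others above the floor on at least 1 array, by the Euclidean distance between signals centred on each gene's own mean over the 4 arrays. Nearest to Socs1 were Mvd, an enzyme of sterol synthesis (0.057), Mcam (0.10) and Ppp1r1a (0.11). Nearest to Socs2 were the transcription factor gene Bhlhe40 (0.20), Ankrd55 (0.46) and the proteoglycan gene Gpc1 (0.55). Nearest to Cish were Olfm1 (0.084), Ndufs5, a subunit of respiratory complex I (0.12), and Phlda1 (0.14). Nearest to Pias1 were Kdm6a, a histone demethylase (0.033), Fut8, a fucosyltransferase (0.040), and Zfp595 (0.040). With 4 arrays such likeness is a description of these arrays.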

How the data were processed

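Gene expression was measured on 4 Affymetrix whole-transcript arrays, 1 per group. The deposited table holds 1 log2 signal per probeset and array, made with RMA in Affymetrix Expression Console, per the submitters' processing notes. Its version, settings and genome build were not given in the sources used here. Values ran from 0.158 to 13.12, which is the basis for reading them as log2. The number of arrays limits the precision.

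The table lists 35557 probesets. The platform annotation names 1 symbol for 21789 of them, several for 1621 and none for 12147. RefSeq (GRCm38.p6) held the Entrez gene of 21698 single-symbol probesets and updated 0 symbols. There were 999 genes with several probesets. Of 1027 olfactory receptor genes, taken as not expressed in macrophages, the 95th percentile was 1.91 to 2.07 by array, below the floor. The 5 comparisons used the rule of size described above (with the highest of 4 arrays at the floor for the difference of effects), and no p-value was computed. Lower bounds of folds were computed against the floor. The analysis used Python 3.11.15, pandas 2.3.3 and, for lowess (fraction 0.3), statsmodels 0.14.6.

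The members and gene lists were chosen with earlier results of these data known, and 1 list is not reported here. Named were all 10 members, Stat6, up to 5 members of each list past the rule with IL-4 in wild type or in the difference of effects, and the 3 most similar genes. Other genes named from the lists (Stat5a, Jak2, Lifr, Osm, Cblb and relatives of the members among them) and the markers were picked after their values were seen. Alternatives were another normalization (3), another floor (3), the mean of all probesets, and a 1.5-fold rule; leaving out probesets without a neighbour on the gene's chromosome was chosen after seeing the data.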

Additional observations from a re-analysis of the deposited data

Results flagged for a closer look

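For 3 inhibitors, each read from its probeset with the highest mean, the IL-4 effect had opposite signs in the 2 genotypes. The difference between the effects was not tested. Socs1 differed by -0.25 in Stat6-/- cells and by 1.51 in wild type, a difference of effects of -1.75. Socs5 differed by 0.13 in Stat6-/- cells and by -0.03 in wild type, a difference of effects of 0.16. Socs7 differed by 0.03 in Stat6-/- cells and by -0.02 in wild type, a difference of effects of 0.051. The last pair lay far inside the 2-fold rule in both genotypes, so Socs1 is the 1 of these 3 genes past the rule.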

How the results depend on the processing

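With the floor at the 75th percentile, the number of inhibitors past the rule was 2 for IL-4 in wild type (4 as deposited), 1 for the genotypes with IL-4 (3 as deposited) and 1 for the difference of effects (3 as deposited), because Socs1 and Cish do not reach that floor of 4.65. No other alternative moved a count of inhibitors by more than 1.5 times. Of 450 differences of single inhibitors recomputed under the alternatives, 439 kept their side of the rule, 10 lost the call, 1 gained it (Pias1 in the difference of effects, with a 1.5-fold rule) and 0 reversed as a call. The Socs2 call for IL-4 in wild type and for the genotypes with IL-4 was lost on the second probeset. Over all settings the difference in wild type ran from 0.97 to 4.05 for Socs2, from 1.46 to 1.57 for Socs1 and from 1.45 to 1.80 for Cish, and the Pias1 difference from -1.11 to -0.89. For Socs2 and Cish it includes a signal under the floor, except where signals were raised to the floor. That setting gave the 1.45 of Cish, which is a bound.

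Over all genes, the share of calls that were higher was 30.4% for IL-4 in wild type, 45.2% after quantile normalization applied again and 44.9% with the intensity trend removed. For the genotypes in medium it was 20.8%, 37.2% and 32.8%, and for the difference of effects 64.3%, 52.3% and 54.5%. The 1.5-fold rule called 596 genes for IL-4 in Stat6-/- cells (37 as deposited), 2907 in wild type (1001), 2398 for the genotypes with IL-4 (922), 1114 in medium (149) and 2830 for the difference of effects (969). The floor at the 75th percentile called 20 for IL-4 in Stat6-/- cells and 93 for the genotypes in medium. In the pathway lists, with arrays shifted to one median, 7 receptors (Ifngr1 and Il7r added) and 1 STAT5 target (Mcl1, -1.04) were lower with IL-4 in wild type. So were 4 STAT3 targets (3 as deposited, Mcl1 added) and 6 receptors listed for SHP-1 (5 as deposited, Milr1 added at -1.03). For IL-4 in wild type the median of the other inhibitors was 0.04 after quantile normalization again and 0.10 with the trend removed (-0.08 as deposited), and that of the SUMO genes was 0.02 with the trend removed (-0.14). No paired analysis was possible because each group had 1 array.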
